A study of Mus musculus with 37 samples.

Results

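Splenocytes kept for 48 h with unwashed RAW264.7 macrophages were compared with naive splenocytes, using 14 of the 37 libraries of a mouse RNA-seq series. The comparison held the 12 libraries whose treatment label names exposure to RAW cells without a wash and the 2 libraries labelled naive, and each of the 4 co-culture groups was given equal weight. RAW264.7, a line of mouse cells with macrophage features, had been seeded at 40000 per well and kept for 72 h at 21% oxygen (normoxia) or 1% oxygen (hypoxia), with SPP1 at 1 µg/mL or without it. Splenocytes of WT FVB mice were then added at 1500000 cells per well. The 4 groups were hypoxia without SPP1, hypoxia with SPP1, normoxia without SPP1 and normoxia with SPP1, with 3 libraries each. Brefeldin A, which blocks protein secretion, was added after the 48 h, and splenocytes were collected. The other libraries came from splenocytes given the medium of the RAW cells (11 libraries, called medium) or RAW cells after a media wash (12 libraries, called washed). They were part of the edgeR fit of all 37 libraries, and so of its filter, scaling and estimate of spread. Their own values are given below only beside named IDs. The study's methods describe the co-cultures as repeated in independent experiments, but neither they nor the labels tie the replicate numbers to experiments, mice or cultures. The p-values therefore measure the spread between libraries, for edgeR those of all 37, and part of it may be technical.

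The spleen is a mixture of B cells, T cells, NK cells and resident myeloid cells. Macrophages act on lymphocytes through contact, through secreted cytokines and through competition for nutrients, and oxygen shortage shifts macrophages toward glycolysis and wound-repair programs. SPP1, or osteopontin, is a secreted protein that binds CD44 and integrins, is made in quantity by hypoxic tumors and by a class of tumor macrophages, and was added here as a recombinant agent. A line such as RAW264.7 is a single transformed clone and stands in for tumor macrophages only in part. What separates co-culture from naive is broad: exposure to RAW cells, time in culture, medium and Brefeldin A. The sources used here do not say whether the naive splenocytes were cultured or given Brefeldin A, so these cannot be told apart. The part of RAW264.7 RNA carried over with unwashed cells was not tested. In such bulk libraries, fewer cells of a type and less RNA per cell cannot be told apart either.

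Each value is a count of mouse reads that aligned to a human gene, because the table was built on the human assembly GRCh38 and all its 60708 row IDs are human Ensembl IDs. None of them (0) occurs in the mouse name tables used here, so IDs are given as in the files, without version suffix, and no symbol, function, position or sequence is attached to them. For the same reason the splenocyte label could not be checked against B cell, T cell or macrophage markers. A mouse transcript may also be split between a human gene and its paralogs or pseudogenes, which makes the gene behind any single ID uncertain.

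Both naive libraries lay apart from all 12 co-culture libraries, the naive libraries also differed from each other, and 1 co-culture library stood off from its group. On the first principal component of log2 CPM (counts scaled to a common library total), which took 32.9% of the variance, naive replicates 1 and 2 had scores of −49.0 and −75.0, whereas co-culture scores ran from 1.12 to 25.4. On the second component (17.3%), the 6 normoxia libraries lay between 13.1 and 16.9 and 5 of the 6 hypoxia libraries between −8.97 and 1.03, and hypoxia without SPP1 replicate 2 lay at −59.5. Of the 5193 IDs tested, 1884 and 1744 differed by over 2-fold between that library and the other two of its group. The 6 normoxia pairs had 403 to 589 such IDs and the naive pair 1363. The other hypoxia pairs had 680, 741 and 1067 with SPP1 and 1179 without it. Every hypoxia pair thus differed at more IDs than every normoxia pair. The part of this spread in the comparisons below was not tested. Chi-square per degree of freedom was 2.93 to 30.9 for the 12 co-culture pairs and 14.7 for the naive pair, so no pair looked like 1 library deposited in duplicate. This check sets libraries against counting noise alone and does not show that they are biological replicates.

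**Figure D1:**
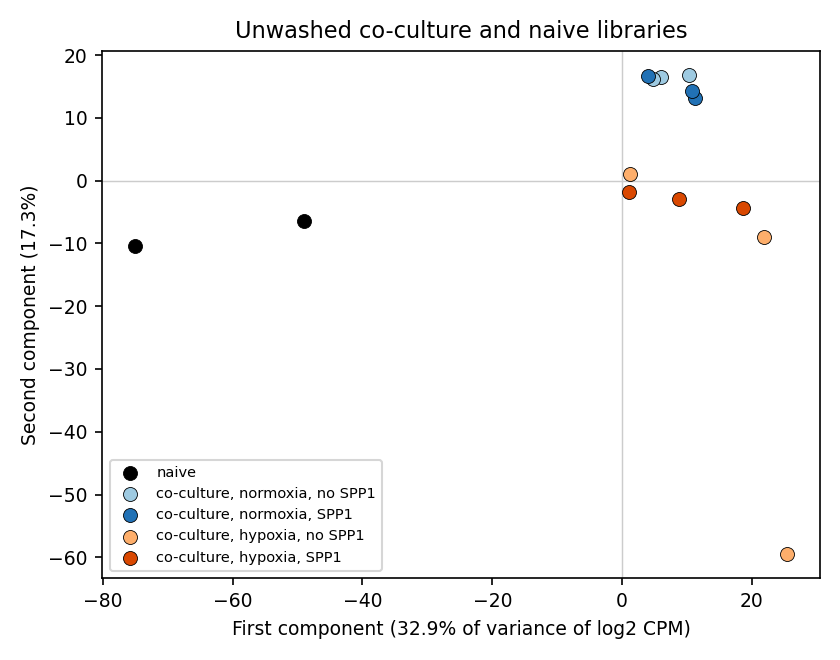
Principal components of log2 CPM over the 5193 tested IDs for the 12 co-culture and 2 naive libraries, 1 point per library, with the first component (32.9% of variance) across and the second (17.3%) up. The naive libraries sit at −49.0 and −75.0 on the first component, and hypoxia without SPP1 replicate 2 sits at −59.5 on the second.

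Co-culture libraries were deeper and their counts were concentrated on fewer IDs. Total counts were 818419 to 1328808 in co-culture and 967604 and 631574 in naive replicates 1 and 2. The top 10 IDs of each library made up 20.2% ± 1.25 (SD, n = 12) of its counts in co-culture, with a range of 18.6% to 22.7%, and 16.0% and 12.1% in naive (two-sided exact permutation test, p = 0.022, adjusted p = 0.044 over 4 library measures). The number of IDs that together held 50% of the counts was 105 ± 13.1 (SD, n = 12; 73 to 123) in co-culture and 124 and 156 in naive (exact permutation p = 0.022, adjusted p = 0.044). IDs with a count numbered 8632 to 10295 in co-culture and 9988 and 10807 in naive (exact permutation p = 0.044, adjusted p = 0.044). The exact test had 91 splits, so 0.022 was the smallest p it could give. The difference in depth has the same p and adjusted p (0.044 for both), and its part in these measures was not tested.

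To ask which transcripts differed after co-culture, the mean of the 4 groups was set against naive. At an adjusted p under 0.05 by the quasi-likelihood test of edgeR, 1418 IDs were called (27.3% of those tested). Of these, 724 (13.9% of tested) were higher and 694 (13.4%) were lower in co-culture. The split leaned the other way under RLE scaling, which moved the median log2 fold change of all tested IDs by −0.11, from 0.04 to −0.07, and called 638 higher and 835 lower. Changes of both signs were of like size. The median log2 fold change was 1.52 among the IDs called higher and −1.56 among those called lower. More than 2-fold differences were found for 593 higher and 569 lower IDs, more than 4-fold for 190 and 217, and more than 8-fold for 61 and 57.

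**Figure D2:**
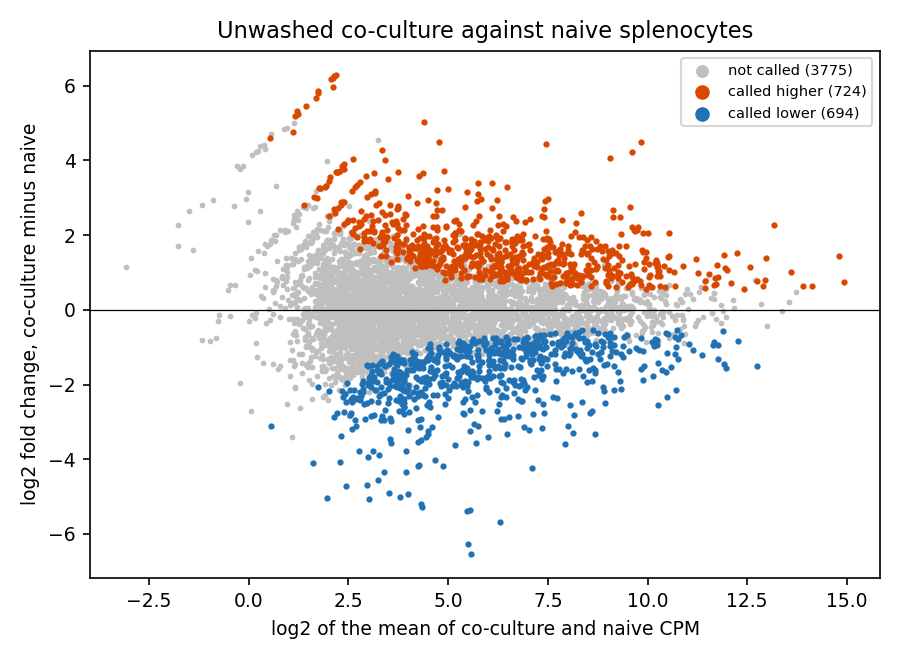
Log2 fold change of unwashed co-culture minus naive (vertical axis, edgeR) against the log2 of the mean of co-culture and naive CPM (horizontal axis), 1 point per tested ID. The 724 IDs called higher and the 694 called lower spread over all levels, and at low levels only large differences were called.

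Most calls also separated the libraries completely. All 12 co-culture libraries lay above both naive libraries for 748 tested IDs (14.4%) and below both for 690 (13.3%). Among the IDs called higher, 611 separated in this way and 113 had overlapping ranges. Among those called lower, 546 separated and 148 overlapped. A further 137 IDs separated upward and 144 downward without passing the test. The median log2 CPM difference of the IDs called higher was 1.19 against naive replicate 1 and 1.64 against naive replicate 2, and that of the IDs called lower was −1.22 and −1.57. The differences were thus larger against naive replicate 2 than against naive replicate 1. Without naive replicate 1, whose absence leaves a single naive library to clear, 1318 IDs separated upward and 1279 downward.

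The number of calls depended on naive replicate 2, the shallowest of the 14 libraries and the one farthest from co-culture. Without it, 452 IDs were called (192 higher and 260 lower), and 438 of them were among the 1418. Without naive replicate 1, 1352 IDs were called (670 higher and 682 lower), of which 983 were among the 1418. In each of these fits the lone naive library was assumed to vary like the other groups, and the filter passed more IDs (5690 and 6031). Leaving out any co-culture library gave 1371 to 1492 calls, and 1457 where the library left out was hypoxia without SPP1 replicate 2. Why the number of calls depends on naive replicate 2 was not tested.

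**Figure D3:**
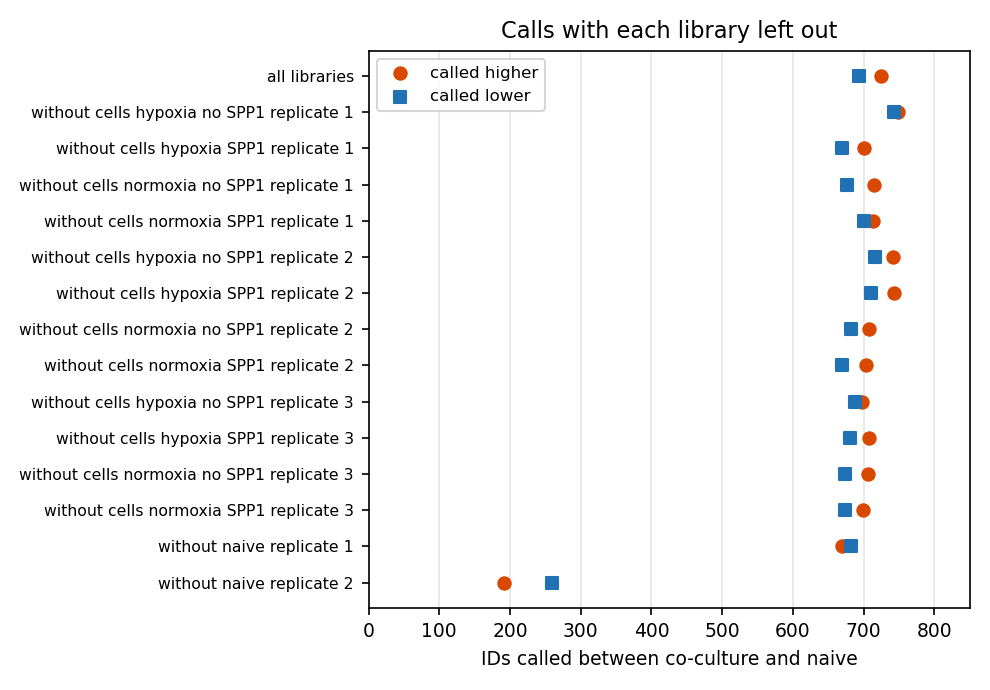
Number of IDs called higher (circles) and lower (squares) in unwashed co-culture against naive (edgeR, adjusted p under 0.05; horizontal axis) in the fit of all libraries and with each co-culture or naive library left out (vertical axis). The counts stay near 724 and 694 except without naive replicate 2, where they are 192 and 260.

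Abundant IDs were called more often, and by smaller changes, than scarce ones. Tested IDs were ranked by the mean of their co-culture and naive CPM and cut into bins of equal size. In the lowest bin (0.119 to 7.47 CPM), 62 IDs were called higher and 38 lower, 7.70% of 1299, and the called IDs had a median log2 change, signs ignored, of 2.81. In the highest bin (86.2 to 31063 CPM), 326 were higher and 268 lower, 45.8% of 1298, and this median was 1.18. The bins between them had 20.9% and 34.9% called. At these depths 3 counts equal 2.22 to 3.91 CPM, and 318 tested IDs had a total of at most 3 naive counts, so small differences among scarce IDs were not detectable here.

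The IDs called higher, taken as they were selected and with no test, held 45.4% ± 2.07 (SD, n = 12) of all counts in co-culture, from 43.2% to 49.2%. They held 27.7% in naive replicate 1 and 20.5% in naive replicate 2. The IDs called lower held 8.98% ± 0.932 (SD, n = 12) in co-culture, from 6.64% in hypoxia without SPP1 replicate 2 to 9.94%, and 21.7% and 27.0% in naive. The other 3775 tested IDs held 44.9% ± 1.31 (SD, n = 12) in co-culture, from 42.1% to 46.1%, and 49.6% and 50.3% in naive, so their share was also lower in every co-culture library than in either naive library.

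Few IDs were present in every library of one side and missing from every library of the other. Of 4836 IDs with a count in all 12 co-culture libraries, 30 had no count in either naive library, and the most abundant of the 30 averaged 9.11 CPM in co-culture. Of 7640 IDs with a count in both naive libraries, 93 had none in any co-culture library, and their pooled naive counts had a median of 3 and reached 16. The pooled totals behind these numbers were 13852627 counts in co-culture and 1599178 in naive. Both numbers rested on the pair of naive libraries. With naive replicate 2 alone they were 194 and 961, and with naive replicate 1 alone 105 and 523.

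The single co-culture library nearest to naive was more often a hypoxia library than a normoxia library. For each ID called higher, the co-culture library with the lowest CPM was taken as the nearest to naive, and for each ID called lower the library with the highest CPM. The nearest library was a hypoxia library for 475 IDs called higher and 423 called lower, and a normoxia library for 249 and 271. Hypoxia without SPP1 replicate 2 was nearest for 110 of the 724 IDs called higher, hypoxia without SPP1 replicate 1 for 103 and hypoxia with SPP1 replicate 2 for 96. Normoxia with SPP1 replicates 2 and 3 were nearest for 17 and 22. Among the 694 IDs called lower, hypoxia with SPP1 replicate 2 was nearest for 105, and hypoxia without SPP1 replicates 1 and 2 and normoxia without SPP1 replicate 1 for 92 each. Hypoxia without SPP1 replicate 1 was the shallowest co-culture library, and hypoxia without SPP1 replicate 2 was the library that stood apart. Only the nearest library was counted, not the farthest, so these numbers do not place hypoxia libraries as a group nearer to naive. On the first principal component, hypoxia libraries had both the lowest co-culture scores (1.12 and 1.21) and the highest (18.7, 21.9 and 25.4). These are descriptions of selected IDs, and the part of depth and spread in them was not tested.

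The 2 largest increases and the 2 largest decreases are described by library. They were taken from 522 higher and 475 lower IDs that were called, reached 20 CPM in the higher arm and did not overlap between co-culture and naive. Their separation from naive, given below, thus follows from how they were chosen.

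ENSG00000138623 was nearly missing from naive splenocytes, with 1.95 CPM (2 counts) in replicate 1 and 0 in replicate 2. Its lowest, median and highest co-culture values were 12.9, 44.7 and 67.0 CPM, with a mean of 41.3 ± 15.7 (SD, n = 12). The 6 normoxia libraries had 43.2 to 67.0 CPM and the 6 hypoxia libraries 12.9 to 46.2, the lowest being hypoxia without SPP1 replicate 2. All co-culture libraries were above naive, and the oxygen groups overlapped each other. The edgeR log2 fold change against naive was 5.02 (SE 1.05, adjusted p = 0.000424). The ratio of pooled counts, 572 against 2, was 37.8 with a 95% exact interval of 10.4 to 313, which covers counting error only. Without naive replicate 1 the naive count was 0, and the fitted log2 value of 8.41 then depended on the prior count. The hypoxia minus normoxia difference was −0.84 on the log2 scale and did not pass (adjusted p = 0.297, edgeR). In medium libraries this ID had 5.86 ± 11.8 CPM (SD, n = 11), which was lower than in co-culture by edgeR (log2 difference, co-culture minus medium, 3.25, SE 0.40, adjusted p = 3.24e-08). The medium median was 2.67 CPM, but the highest medium library, at 41.2 CPM, lay inside the co-culture range. In washed libraries the ID had 33.3 ± 20.3 CPM (SD, n = 12), a difference of 0.30 that did not pass (adjusted p = 0.597, edgeR). For background, 48.7% of tested IDs were called between co-culture and medium and 7.24% between co-culture and washed.

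ENSG00000135363 had an even level in all co-culture groups and was close to the detection limit in naive. Naive values were 2.93 and 1.30 CPM (3 counts and 1 count). Co-culture values had a minimum of 41.0, a median of 48.9 and a maximum of 75.9 CPM, with a mean of 52.3 ± 9.73 (SD, n = 12). Group means lay between 50.7 CPM, in normoxia without SPP1, and 55.0 CPM, in hypoxia without SPP1. No co-culture library came near the naive level, and the 4 groups overlapped. The log2 fold change was 4.49 (SE 0.58, edgeR adjusted p = 3.16e-07), and the ratio of pooled counts, 713 against 4, was 23.6 with a 95% exact interval of 9.17 to 86.8. Splenocytes that received RAW medium held 47.1 ± 11.1 CPM (SD, n = 11), and neither that difference (log2 0.20, adjusted p = 0.397) nor the difference from washed co-culture (log2 0.54, adjusted p = 0.0659; 35.8 ± 12.7 CPM, SD, n = 12) passed edgeR's test.

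ENSG00000202538 was almost absent after co-culture. It had 24.4 and 164 CPM (25 and 126 counts) in naive replicates 1 and 2. In co-culture 7 of 12 libraries had 0 counts, 4 had 1 to 3 counts, and hypoxia without SPP1 replicate 2 had 10 counts, or 11.7 CPM. That library was thus the nearest to naive, at less than the lower naive value. The log2 fold change was −6.53 (SE 0.86, edgeR adjusted p = 4.34e-07). In pooled counts (151 in naive, 17 in co-culture) the naive rate was 67.1 times that of co-culture, with a 95% exact interval of 40.6 to 118, and the naive libraries differed from each other by more than their counting error. Medium libraries averaged 3.59 ± 2.58 CPM (SD, n = 11) and washed libraries 7.46 ± 15.0 CPM (SD, n = 12). Neither differed from co-culture past the threshold (adjusted p = 0.0708 and 0.167, edgeR).

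ENSG00000200312 followed a similar course. Naive replicates 1 and 2 had 29.3 and 150 CPM (30 and 115 counts). Co-culture values ran from 0 to 5.85 CPM with a median of 0.805, and the highest was again hypoxia without SPP1 replicate 2, with 5 counts. Every co-culture library was below both naive libraries. The log2 fold change was −6.27 (SE 0.70, edgeR adjusted p = 2.25e-08), and the naive rate was 68.5 times the co-culture rate in pooled counts (145 against 16; 95% exact interval 40.8 to 123). Medium and washed libraries held 2.32 ± 1.54 (SD, n = 11) and 2.85 ± 5.24 CPM (SD, n = 12). Differences from co-culture did not pass (adjusted p = 0.311 and 0.754, edgeR). Each of these 4 IDs kept its direction and its call without naive replicate 2, with log2 fold changes of 4.25, 4.10, −4.60 and −4.67 in the order described and edgeR adjusted p-values of 0.0363, 0.000412, 0.0119 and 0.00159.

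**Figure D4:**
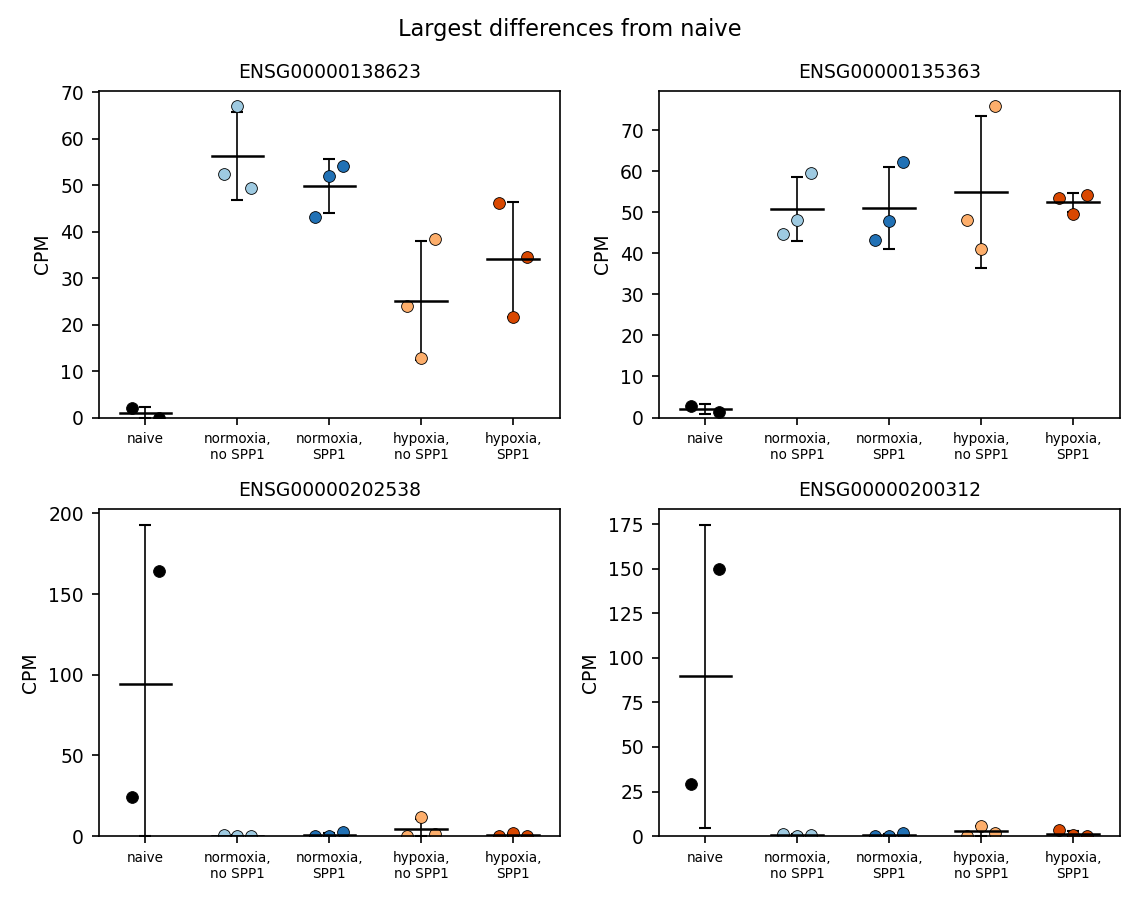
CPM (vertical axis, linear from 0) of the 2 IDs with the largest increase (top) and the 2 with the largest decrease (bottom) in naive splenocytes and in the 4 co-culture groups (horizontal axis), 1 point per library, with the group mean and SD (n = 2 for naive, n = 3 for each other group; bars cut off at 0). All co-culture points of the top IDs, 12.9 CPM or more, lie above naive, and all those of the bottom IDs, 11.7 CPM or less, lie below it. The IDs were chosen to separate in this way.

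Each co-culture group also differed from naive on its own. With edgeR, hypoxia without SPP1 had 1237 called IDs (23.8% of tested), with 702 higher (13.5%) and 535 lower (10.3%). Hypoxia with SPP1 had 1004 (19.3%), with 587 higher (11.3%) and 417 lower (8.03%). Normoxia with SPP1 had 1014 (19.5%), with 568 higher (10.9%) and 446 lower (8.59%), and normoxia without SPP1 had 974 (18.8%), with 550 higher (10.6%) and 424 lower (8.16%). In the reported fit all 4 groups had more IDs called higher than lower. For their average this balance turned under RLE scaling, to 638 higher and 835 lower. The balance of each group under other scalings is not given here. The 4 comparisons share the naive libraries and are not independent, and the groups differ from each other only where that difference itself was tested. Hypoxia without SPP1 had 979 calls once its replicate 2 was left out. Without naive replicate 2, the counts were 471, 252, 299 and 263 in the same order.

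The oxygen that RAW cells had received was tested directly among the 12 co-culture libraries. Of 5193 IDs, 188 (3.62%) were called between hypoxia and normoxia, 141 higher (2.72%) and 47 lower (0.905%) after hypoxia. Of the 1418 IDs that differed from naive, 54 (3.81%) were among these 188, which is 28.7% of the 188 and near the 27.3% called against naive among all tested IDs. Among the 54, 22 were higher than naive and higher after hypoxia, 14 higher than naive and lower after hypoxia, 13 lower than naive and higher after hypoxia, and 5 lower in both. Thus 27 of the 54 IDs were farther from naive after hypoxia and 27 nearer to it. The number 54 was unsteady. Leaving out hypoxia without SPP1 replicate 1, 2 or 3 gave 99, 37 or 22. Leaving out hypoxia with SPP1 replicate 1, 2 or 3 gave 28, 60 or 20, and leaving out any of the 6 normoxia libraries gave 21 to 31. SPP1 gave no call among the co-culture libraries: 0 of 5193 IDs passed in edgeR and 0 in DESeq2. An unadjusted edgeR p under 0.05 was found for 87 of the 5193. This share is below 0.05, the share that a test gives on average where nothing differs. When every ID with a count was tested, 6 of 22657 passed.

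The 4 IDs below had the smallest adjusted p for oxygen among those 54, 2 in each direction.

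ENSG00000134323 was higher in co-culture with hypoxia-exposed RAW cells than in co-culture with normoxia-exposed ones. Naive values were 1.95 and 5.21 CPM. The 6 normoxia libraries had 2.31 to 10.5 CPM with a median of 8.50, and the 6 hypoxia libraries 26.3 to 136 with a median of 86.7. Hypoxia and normoxia libraries did not overlap, whereas normoxia and naive did. The hypoxia minus normoxia difference was 3.61 on the log2 scale (SE 0.52, edgeR adjusted p = 1.94e-05). Against naive, hypoxia with and without SPP1 gave log2 fold changes of 4.48 and 4.83 (adjusted p = 0.0015 and 0.000516, edgeR), and normoxia with and without SPP1 gave 0.61 and 1.48 without passing (adjusted p = 0.769 and 0.389, edgeR). The average over all 4 groups, 2.85 (SE 0.96, edgeR adjusted p = 0.0241), was lost without either naive library, with 2.33 (adjusted p = 0.18) without replicate 1 and 3.61 (adjusted p = 0.117) without replicate 2. This ID was more abundant with medium than in co-culture (257 ± 129 CPM, SD, n = 11; log2 difference, co-culture minus medium, −3.24, edgeR adjusted p = 1.25e-09) and less abundant in washed co-culture (6.77 ± 5.79 CPM, SD, n = 12; log2 difference 2.04, edgeR adjusted p = 0.00432).

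ENSG00000170017 was lower than naive in co-culture with normoxia-exposed RAW cells, whereas neither hypoxia group differed from naive past the threshold. It had 83.9 and 41.7 CPM in naive, 17.5 to 52.7 CPM (median 43.9) in the hypoxia libraries and 7.62 to 19.3 CPM (median 11.7) in the normoxia libraries. Normoxia lay below both naive libraries, and hypoxia overlapped naive replicate 2. Medium libraries had 108 ± 30.1 CPM (SD, n = 11), more than co-culture (log2 difference, co-culture minus medium, −2.29, edgeR adjusted p = 7.90e-12). Washed libraries had 19.4 ± 6.82 CPM (SD, n = 12), and the co-culture minus washed difference of 0.18 did not pass (adjusted p = 0.640, edgeR). The hypoxia minus normoxia difference was 1.72 (log2, SE 0.28, edgeR adjusted p = 0.000133). Normoxia with and without SPP1 differed from naive by −2.04 and −2.76 on the log2 scale (adjusted p = 0.000491 and 2.17e-05, edgeR). Hypoxia with and without SPP1 differed by −0.94 and −0.43 and did not pass (adjusted p = 0.0887 and 0.455, edgeR). The average difference of −1.54 (SE 0.31, edgeR adjusted p = 0.000249) became −0.86 (adjusted p = 0.162) without naive replicate 1.

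ENSG00000275052 went the other way with oxygen. Naive splenocytes had 199 and 103 CPM, hypoxia libraries 131 to 190 (median 167) and normoxia libraries 320 to 445 (median 367). The hypoxia libraries lay between the naive values and the normoxia libraries lay above them. Medium libraries had 161 ± 53.9 CPM (SD, n = 11), less than co-culture (log2 difference, co-culture minus medium, 0.61, edgeR adjusted p = 0.000457). Washed libraries had 317 ± 127 CPM (SD, n = 12), and the co-culture minus washed difference of −0.27 did not pass (adjusted p = 0.206, edgeR). The hypoxia minus normoxia difference was −1.17 (log2, SE 0.19, edgeR adjusted p = 0.000141). Normoxia with and without SPP1 exceeded naive by 1.18 and 1.40 on the log2 scale (adjusted p = 0.00642 and 0.00174, edgeR), whereas hypoxia with and without SPP1 gave 0.17 and 0.06 (adjusted p = 0.738 and 0.906, edgeR). Its average against naive, 0.70 (edgeR adjusted p = 0.0464), was close to the threshold and was lost in 13 of 19 alternatives. It was 1.35 without naive replicate 1 and 0.31 without naive replicate 2 (adjusted p = 0.656, edgeR).

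ENSG00000115904 was raised in all 4 groups, by more after normoxia. It had 135 and 99.0 CPM in naive, 161 to 219 CPM (median 206) in hypoxia and 319 to 451 CPM (median 374) in normoxia, and the 3 sets did not overlap. The difference between hypoxia and normoxia was −0.92 (log2, SE 0.16, edgeR adjusted p = 0.0003). The log2 fold change over naive was 1.23 (SE 0.23, edgeR adjusted p = 0.000138), and the groups gave 0.76 and 0.78 in hypoxia with and without SPP1 and 1.61 and 1.77 in normoxia with and without SPP1, all called. Medium libraries had 99.3 ± 18.3 CPM (SD, n = 11), and the difference from co-culture was 1.46 on the log2 scale (edgeR adjusted p = 7.90e-12). Washed libraries had 260 ± 60.7 CPM (SD, n = 12), and the co-culture minus washed difference of 0.10 did not pass (adjusted p = 0.627, edgeR).

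**Figure D5:**
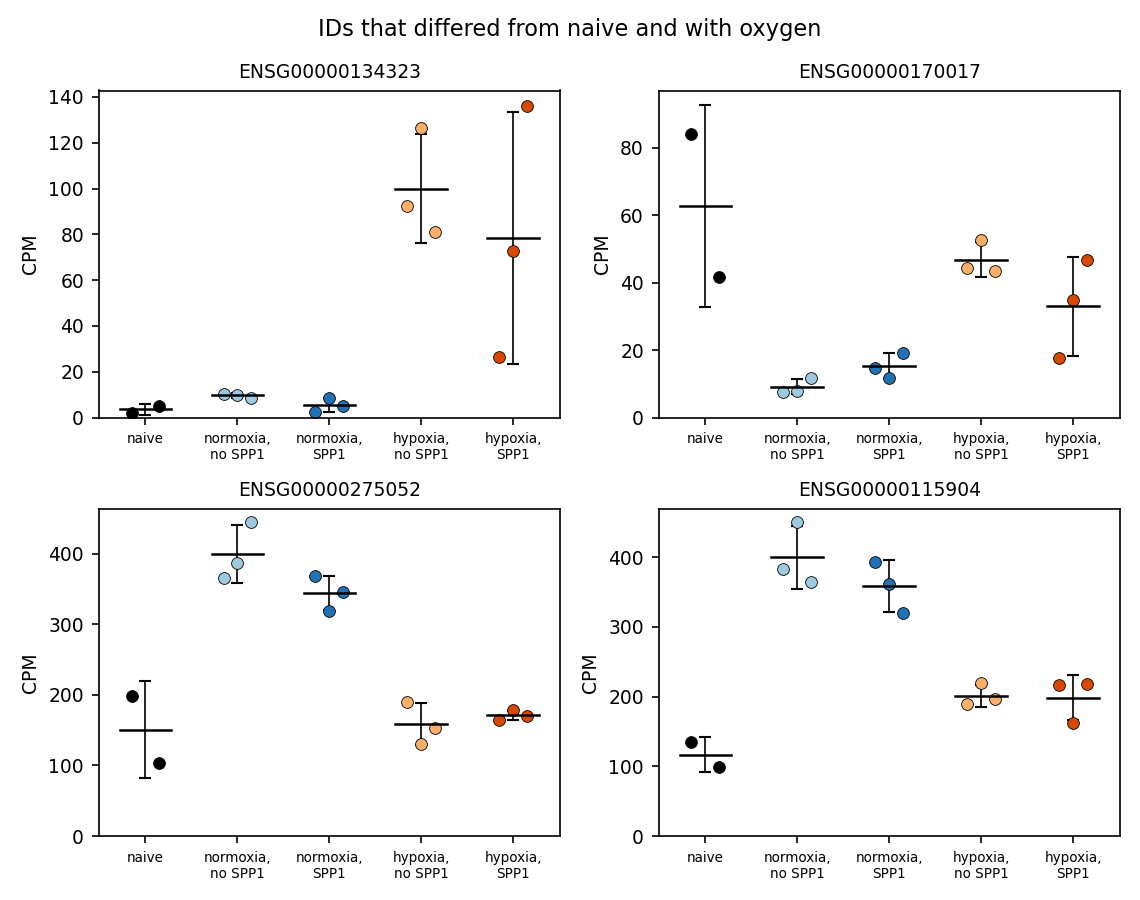
CPM (vertical axis, linear from 0) of the 4 IDs with the smallest adjusted p for oxygen among those that also differed from naive, in naive splenocytes and the 4 co-culture groups (horizontal axis), 1 point per library with the group mean and SD (n = 2 for naive, n = 3 for each other group). Top: ENSG00000134323 is at most 10.5 CPM in normoxia and at least 26.3 in hypoxia, and ENSG00000170017 stays below 20 CPM in normoxia. Bottom: ENSG00000275052 and ENSG00000115904 are at least 319 CPM in normoxia and at most 219 in hypoxia.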

How the data were processed

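RNA of splenocyte cultures was made into QuantSeq 3′ mRNA libraries, which read transcript ends, and sequenced as single reads. Per the labels and the submitters' notes, the authors used STAR 2.7.10b for alignment to GRCh38 and featureCounts (Rsubread 2.0.3) for counting. The table the authors deposited holds raw counts (100% whole numbers). The annotation release, multi-mapping rule and use of molecular identifiers are not given in the sources used here, so a count may include PCR copies. Alignment of mouse reads to a human assembly loses or misplaces transcripts whose ends differ between the species.

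Counts of all 37 libraries (13 groups) were fitted with edgeR 4.0.16 (R 4.3.3): filterByExpr with a minimum count of 10 kept 5193 of 22657 IDs with a count, holding 97.8% to 99.4% of the counts in the co-culture and naive libraries. Totals were scaled by TMM, contrasts of group means were tested by quasi-likelihood, p-values were adjusted by Benjamini-Hochberg over all tested IDs, and IDs with an adjusted p under 0.05 are referred to as called. Standard errors came from the F statistic. CPM used TMM-scaled totals, and log2 CPM a prior count of 2. The steps were tested on simulated data. Library measures were compared by exact permutation with scipy 1.17.1, and counting intervals are exact.

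Named IDs were to be chosen by symbol and by 35 gene lists. As no table used here pairs the IDs with symbols, the lists were not applied, and the 2 largest changes per direction were named among called IDs with at least 20 CPM in the higher arm and no overlap between co-culture and naive, plus 2 per direction with the smallest adjusted p for oxygen. The libraries, rules and lists were chosen with earlier results of these data known. Alternatives were RLE scaling, no filter, DESeq2 1.42.0, only the co-culture and naive libraries, the replicate number as a block and leaving out each library.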

Additional observations from a re-analysis of the deposited data

Results flagged for a closer look

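By edgeR's test of hypoxia minus normoxia among the 12 co-culture libraries, 188 IDs (3.62% of those tested) were called. Of these, 54 also differed from naive splenocytes, and the 4 with the smallest adjusted p for oxygen, 2 per direction, are given here. For each of the 4, the difference from naive itself differed between co-cultures with hypoxia-exposed and normoxia-exposed RAW cells. The log2 difference was 3.61 for ENSG00000134323 (adjusted p = 1.94e-05) and 1.72 for ENSG00000170017 (adjusted p = 0.000133). It was −1.17 for ENSG00000275052 (adjusted p = 0.000141) and −0.92 for ENSG00000115904 (adjusted p = 0.0003). In each of them except ENSG00000170017, where hypoxia with SPP1 replicate 1 (17.5 CPM) lay below the highest normoxia library (19.3 CPM), the 6 hypoxia libraries did not overlap the 6 normoxia libraries. All 4 stayed called with the same sign in all 19 alternatives, with adjusted p-values of at most 0.000313, 0.00123, 0.000855 and 0.0106 in the same order. The 4 had been chosen by their adjusted p for oxygen, and the alternatives used largely the same libraries. Neither the separation nor these calls are therefore independent support. No group had a size at which single outlying libraries are tested.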

How the results depend on the processing

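Of 19 alternatives, only the fit without naive replicate 2 moved the number of IDs called against naive by more than 1.5 times. Leaving out each library in turn gave 452 to 1492 calls (192 to 749 higher, 260 to 743 lower), 471 to 1337 for hypoxia without SPP1, 252 to 1058 for hypoxia with SPP1, 299 to 1082 for normoxia with SPP1 and 263 to 1048 for normoxia without SPP1, with each lowest value found without naive replicate 2. The number called both against naive and for oxygen, 54, ranged from 20 to 99 with a library left out and was 91 with DESeq2 and 97 with only the co-culture and naive libraries. The cause was not tested. Calls against naive were 1473 with RLE scaling, 1397 with every ID, 1488 with DESeq2 and 1573 with only the co-culture and naive libraries. The higher share was 51.1% in the reported fit, 43.3% with RLE scaling, 44.9% with DESeq2 and 42.5% without naive replicate 2. The replicate number as a block gave 1363 calls (701 higher, 662 lower). Same-numbered libraries did not deviate together (correlations of −0.345 to 0.185, with 2 of 26 pairs over 0.1), so the numbers were not taken as pairs. None of the 8 named IDs changed sign in the alternatives run, but the balance of calls went from more higher to more lower IDs with RLE scaling, DESeq2, every ID, only the co-culture and naive libraries, and without either naive library. Depth limits the scarce IDs, and a pair of naive libraries limits every comparison with naive.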
